A study of Mus musculus with 45 samples.

Results

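The muscle actins Acta1, Acta2, Actc1 and Actg2 and the tropomyosins Tpm1, Tpm2 and Tpm4 were followed across mouse heart RNA-seq libraries. The 7 genes were taken by symbol from 23284 listed genes, and all 7 had reads in every library. The libraries came from adult heart (2), heart of E12.5 embryos (1), E12.5 heart labelled Gata4 KO (1), heart after banding (1) and heart after a sham operation (1). The study looked at binding of Gata4, a transcription factor of the heart, and at histone marks beside expression in development and heart disease, and its 39 chromatin samples were not analysed here. The labels name 4 alleles for the series as a whole, Gata4fbio, Rosa26BirA, cTNTcre and Gata4flox, and do not say which of them each RNA library carried. A cTNT promoter drives Cre in heart muscle cells, so other cells of such a heart keep the floxed gene. RNA was pooled before library preparation, and neither the number of animals, the strain, the age of the operated mice nor the time after banding is given in the labels. Banding narrows a great vessel so that the heart pumps against a higher load, and the vessel is not named in the labels.

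Actin and tropomyosin together form the thin filament of muscle. Actin subunits polymerise into a filament, tropomyosin dimers lie along it, and troponin bound to tropomyosin moves them with calcium so that myosin can bind. Actc1 encodes cardiac actin, the main actin of the adult heart muscle cell, and Acta1 encodes skeletal actin, which rodent hearts also make around birth and under load. Acta2 and Actg2 encode the smooth muscle actins of vessels and of visceral organs, and Acta2 is also made for a time by embryonic heart muscle cells and by activated fibroblasts. Tpm1 is the main tropomyosin gene of heart muscle. Tpm2 is best known from slow skeletal and smooth muscle and Tpm4 from non-muscle cells. Each tropomyosin gene gives several spliced forms, which values per gene cannot separate.

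The promoters of the actins whose balance differed most between libraries, and of the main tropomyosin, are shown because the serum response factor SRF, a regulator of muscle actin genes, binds the CArG box and because Gata4 binds GATA. The stretches are the 250 bases before the RefSeq start of each gene (build GRCm38.p6), 5′ to 3′ on the strand of the gene, with CArG boxes and GATA, or its complement TATC, in capitals. They lie on the minus strand at chr8:123894776-123895025 for Acta1, chr2:114052876-114053125 for Actc1, chr19:34255374-34255623 for Acta2 and chr9:67049214-67049463 for Tpm1.
Acta1: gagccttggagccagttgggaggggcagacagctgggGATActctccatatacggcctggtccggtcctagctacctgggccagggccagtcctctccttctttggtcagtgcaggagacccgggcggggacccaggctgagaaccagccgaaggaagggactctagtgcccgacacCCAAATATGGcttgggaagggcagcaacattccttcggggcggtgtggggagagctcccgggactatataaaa
Actc1: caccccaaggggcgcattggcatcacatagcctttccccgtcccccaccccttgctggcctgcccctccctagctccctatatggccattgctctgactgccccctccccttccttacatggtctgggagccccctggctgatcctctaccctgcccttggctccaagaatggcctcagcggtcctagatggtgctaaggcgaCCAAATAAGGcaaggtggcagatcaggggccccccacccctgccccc
Acta2: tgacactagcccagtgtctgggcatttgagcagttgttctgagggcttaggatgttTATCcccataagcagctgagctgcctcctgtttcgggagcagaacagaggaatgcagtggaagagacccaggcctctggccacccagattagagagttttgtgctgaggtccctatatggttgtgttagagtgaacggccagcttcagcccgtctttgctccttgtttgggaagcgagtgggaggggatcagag
Tpm1: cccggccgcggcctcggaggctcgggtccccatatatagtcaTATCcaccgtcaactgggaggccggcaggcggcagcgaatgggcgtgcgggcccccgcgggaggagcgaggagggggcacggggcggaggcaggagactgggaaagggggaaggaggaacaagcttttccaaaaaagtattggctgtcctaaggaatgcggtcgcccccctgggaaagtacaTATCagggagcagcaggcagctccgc

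A CArG box was taken as CC, 6 bases that are each A or T, and GG. Acta1 held 1 such box from 73 to 64 bases before the start, and Actc1 held 1 from 47 to 38 bases before it. No match to this strict pattern was found in the windows of Acta2, Tpm1, Tpm2 and Tpm4, and 1.47% of 32851 promoter windows of the same length held one. Stretches with 1 inner base other than A or T were not counted or marked. Examples in the printed windows are ccctatatgg and ccttgtttgg in Acta2, ccctatatgg in Actc1 and ccatatacgg in Acta1. A window without a match can thus still hold a near match. GATA on either strand was found once in Acta1, once in Acta2 and at 2 places in Tpm1, and in none of the Actc1, Tpm2 and Tpm4 windows, against 53.6% of all windows. The motif CATTCC, a site of TEAD factors in muscle genes, was found in Acta1, Acta2 and Tpm1 and in 12.6% of all windows, and TATAAA in Acta1 and 12.4% of all windows. Such matches describe letters in a window only, and no window of Actg2 was used.

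Levels are log2(FPKM + 1) unless FPKM is written (fragments per kilobase of gene, scaled to the mapped reads), and a level of a group with 1 library has no replicate error. The libraries held 12086929 to 21056784 mapped reads, and listed genes took 75.6% to 82.2% of them in the adult and E12.5 libraries but 56.5% after banding and 53.9% after sham. The scaling of FPKM counts all mapped reads, those outside listed genes included. The ribosomal RNA precursor Rn45s stood at 12.96 and 12.94 there, against 6.21 to 8.94 in the other libraries. Shares and ratios within a library do not depend on the scaling. Whether they differ with the Rn45s level or the share of reads on genes was not tested. Gata4 stood at 6.13 in the library labelled Gata4 KO and 5.93 in E12.5, so directions drawn from that library rest on its label. Heart muscle markers were present throughout but differed in level, with Tnnt2 between 11.28 and 13.69 and Myl2 between 12.68 and 14.60. Others of the list varied more, with Myh6 between 7.72 and 13.27, Ryr2 between 3.98 and 7.86 and Nkx2-5 between 2.01 and 7.62. The atrial gene Sln was listed at 0 in banding and sham.

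Cardiac actin was the leading muscle actin in all 6 libraries, and Tpm1 the leading tropomyosin. Adult heart held Actc1 at 12.14 and 12.02, E12.5 at 12.18, the library labelled Gata4 KO at 11.92, banding at 10.16 and sham at 9.53. It lay close together in the adult and embryonic libraries, where it ranked 7 or 8 among all listed genes, and lower in the operated hearts, where it ranked 25 in banding and 27 in sham. Tpm1 stood at 12.75 and 12.77 in adult, 12.15 in banding and 12.06 in sham, while E12.5 held 9.97 and the library labelled Gata4 KO 10.20. Its embryonic libraries lay below every postnatal one, and its rank by FPKM moved from 46 in E12.5 to 5 in both adult libraries and 8 in banding and sham. Acta1 stood at 8.19 and 7.02 in the adult pair; E12.5 held 6.54, the library labelled Gata4 KO 7.71, banding 9.59 and sham 6.48. Banding was its highest library, and the adult pair differed as widely as some groups did. Acta2 stood at 7.03 in each of the adult pair, while E12.5 held 8.56, the library labelled Gata4 KO 9.83, banding 5.43 and sham 5.0. Its order ran from the embryonic through the adult to the operated hearts.

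The remaining members were lower. Tpm4 ranged from 4.93 in sham to 6.46 in E12.5, and its 2 embryonic libraries were the highest. Tpm2 ranged from 4.63 in adult replicate 1 to 5.67 in the library labelled Gata4 KO, with banding, at 5.62, beside the embryonic libraries and sham, at 4.82, beside the adult ones. Actg2 was near the limit of detection, with 22 and 35 reads for the adult pair, 55 for E12.5, 13 for banding, 3 for sham and 56 for the library labelled Gata4 KO. These reads put visceral smooth muscle actin at 0.19 to 2.39 FPKM, under the 5 FPKM asked for below.

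**Figure D1:**
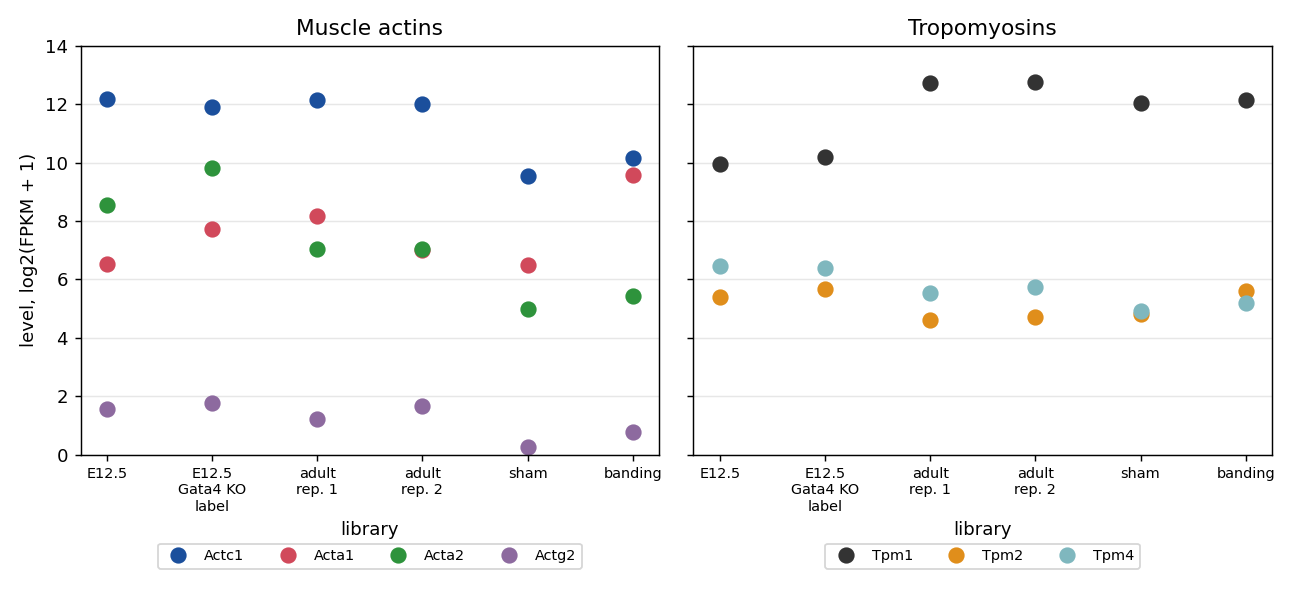
Level of each muscle actin (left) and tropomyosin (right) in log2(FPKM + 1) in each of the 6 libraries, 1 point per library. Actc1 and Tpm1 lead their families throughout, Tpm1 rises from 9.97 in E12.5 to 12.75 and 12.77 in adult, and Acta1 reaches 9.59 in banding against 6.48 in sham.

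The first comparison asked how the thin filament of the adult heart differs from that of the embryonic heart. Tpm1 rose and Acta2, Tpm2 and Tpm4 fell, while Actc1, Acta1 and Actg2 did not pass the test. By limma with Benjamini-Hochberg adjustment at 0.05, 1 member was called higher and 3 lower of 7 tested. Of all 12658 genes tested 71.8% were called, 23.4% higher and 48.4% lower, so a call by itself sets a member apart from few genes. The median difference of all tested genes was -0.51, and differences are read beside it. The spread came only from the adult pair, and limma drew that of each gene toward the trend over all genes. The lone embryonic library is thus taken to vary as much as that pair.

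Tpm1 rose by 2.79 (SE 0.11, limma adjusted p = 0.0041), 3.30 above the median of all genes, and its mean FPKM in adult was 6.94-fold that in E12.5. Both adult libraries lay above both embryonic ones. Acta2 fell by 1.53 (SE 0.061, limma adjusted p = 0.00418), from 8.56 to 7.03 ± 0.0034 (SD, n = 2). Tpm4 fell by 0.81 (SE 0.12, limma adjusted p = 0.0204) and Tpm2 by 0.75 (SE 0.083, limma adjusted p = 0.0123). These falls lay 0.30 and 0.24 below the median of all genes, and neither passed after upper-quartile scaling (limma adjusted p = 0.0806 and 0.0649) or median-of-ratios scaling (0.0801 and 0.0744).

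Actc1 stood at 12.08 ± 0.086 (SD, n = 2) in adult and 12.18 in E12.5 (limma adjusted p = 0.542). Its difference of -0.10 turned to 0.15 to 0.41 under the 4 other scalings, so no direction was given to it. Acta1 stood at 7.60 ± 0.83 (SD, n = 2) against 6.54 (limma adjusted p = 0.239). By a fixed rule of size, which asks for at least 2-fold in FPKM and at least 5 FPKM in the higher group, Acta1 and Tpm1 were higher in adult and Acta2 lower, which makes 2 higher and 1 lower of the 6 members with at least 5 FPKM. By the same rule 59.5% of 8802 genes were called, 18.4% higher and 41.1% lower. Acta1 met that rule through adult replicate 1 alone: against E12.5 its log2 difference was 1.65 for replicate 1 and 0.48 for replicate 2. Actg2 stood at 1.44 ± 0.31 (SD, n = 2) against 1.58 (limma adjusted p = 0.651).

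The adult pair itself set Acta1 apart. Replicate 1 held 290.1 FPKM of Acta1 and replicate 2 held 128.5 FPKM, a 2.26-fold difference that met the rule of size, as 0.588% of 6460 genes did between these libraries and 0.279% in this direction. The other 6 members differed less in log2(FPKM + 1), with replicate 1 minus replicate 2 between -0.44 for Actg2 and 0.12 for Actc1 and at -0.0047 for Acta2. Atrial genes differed in the same direction, with Myl7 at 4.65 and 3.27 and Sln at 3.18 and 1.67, and the summed level of the 4 atrial markers was 8.43 and 8.01. Their part in the Acta1 difference was not tested.

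Cell type markers differed between adult and E12.5 too, with some lists mostly higher and others mostly lower in adult. In bulk heart, fewer cells of a type and less RNA per cell cannot be told apart. Of 8 smooth muscle markers 5 rose and 2 fell in adult by limma. Myh11, the smooth muscle myosin heavy chain, stood at 5.46 and 5.72 in adult and 0.08 in E12.5, so it ran against Acta2, while Cnn1, calponin, stood at 2.34 and 2.53 against 6.75 and ran with it. The summed level of the list was 7.22 and 7.43 in adult and 7.55 in E12.5, with no marker at 0. Of 8 fibroblast markers 2 rose and 4 fell, and their summed level was 6.90 and 7.22 against 7.29. All 5 red cell markers fell, from a summed level of 14.38 to 0.60 and 1.21, with 4 of them at 0 in adult. Skeletal muscle markers fell too, 4 of the 4 tested, from a summed level of 6.22 for the 9 markers to 1.965 and 1.98, with 1 and 2 of them at 0 in adult. Of 4 atrial markers 3 fell, and the summed level of the list went from 13.45 to 8.43 and 8.01. The other, Sln, ran the opposite way, at 0.45 in E12.5 against 3.18 and 1.67 in adult. Sln was higher by the rule of size but not called by limma. Other lists mostly rose in adult by limma: 4 of 5 pericyte markers, with 1 lower, and 3 of 4 endothelial markers, with none lower. Of 8 heart muscle markers 4 rose and 2 fell. The summed pericyte level was 7.47 and 7.53 in adult against 5.45 in E12.5, which ran against Acta2. The part of any of these cell types in the fall of Acta2, Tpm2 and Tpm4 was not tested.

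Shares within each family do not depend on the scaling of a library. Actc1 made up 90.8% of the summed FPKM of the 4 muscle actins in E12.5 and 91.5% and 94.1% in adult. Acta2 made up 7.35% in E12.5 and 2.62% and 2.94% in adult, while Acta1 made up 1.795% in E12.5 and 5.87% and 2.91% in adult. Smooth muscle actin was thus the second actin of the embryonic libraries, and in adult replicate 2 Acta1 and Acta2 lay side by side. Among the 3 tropomyosins Tpm1 made up 88.6% in E12.5 and 99.0% and 98.9% in adult. Tpm4 went from 7.69% in E12.5 to 0.658% and 0.740%, and Tpm2 from 3.70% to 0.341% and 0.356%. The adult values lay far from E12.5 for all 3 tropomyosins next to the gap between the adult libraries. These shares are not separate differences, because Tpm1 makes up most of the sum and its rise lowers the other shares. In FPKM itself Tpm4 was 1.77-fold and Tpm2 1.71-fold lower in adult.

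**Figure D2:**
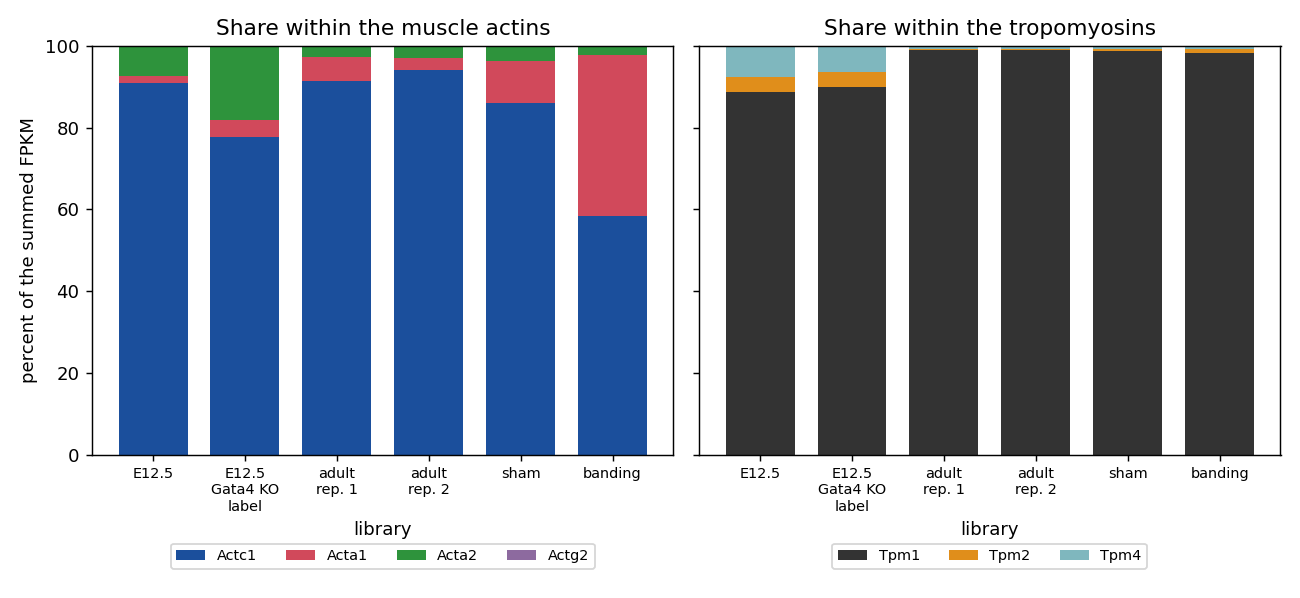
Share of each muscle actin (left, percent of the summed FPKM of the 4 genes) and of each tropomyosin (right, percent of the summed FPKM of the 3 genes) in each library. Acta1 takes 39.4% of the muscle actins in banding, Acta2 takes 18.2% in the library labelled Gata4 KO, and Tpm1 takes 98.2% or more of the tropomyosins in every postnatal library; Actg2, at 0.049% or less, is too small to see.

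Relative to cardiac actin, as a ratio of FPKM, Tpm1 stood at 0.215 for E12.5 and 0.303 for the library labelled Gata4 KO, at 1.52 and 1.68 for adult, and at 3.97 for banding and 5.76 for sham. Cardiac actin thus exceeded Tpm1 in both embryonic libraries, and Tpm1 exceeded it in all 4 postnatal ones. The 3 tropomyosins together took 0.263% and 0.301% of the summed FPKM of all listed genes in the embryonic libraries and 1.86% to 1.94% in the postnatal ones. The 4 muscle actins took 1.15% to 1.37% in the embryonic and adult libraries, 0.789% in banding and 0.385% in sham. The tropomyosin share of the postnatal libraries varied little, and the actin share of the operated hearts lay below that of the others.

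The next comparison asked what differs between the banded and the sham-operated heart. Skeletal actin was the member that stood apart. As deposited the other members were higher in banding by less, and the sign for Tpm1 changed with the scaling. Acta1 stood at 9.59 after banding against 6.48 after sham, from 15463 and 1531 reads, and its FPKM was 8.71-fold higher (95% interval from counting 8.26 to 9.19). It was the 1 member past the rule of size, of 6 with at least 5 FPKM, where 4.82% of 5108 genes were called, 3.19% higher and 1.62% lower. Under the 4 other scalings its log2 difference ran from 2.96 to 3.08. Each of these hearts gave 1 library, so none of these differences has a replicate check, and the intervals cover counting error only. The 2.26-fold gap of this gene between the adult libraries is how far it differed between libraries of the same label.

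Tpm2 stood at 5.62 after banding against 4.82 after sham, 1.77-fold higher in FPKM (95% counting interval 1.61 to 1.94), and Actc1 at 10.16 against 9.53, 1.54-fold higher (1.51 to 1.58). These were the nearest to the rule. Acta2 was 1.36-fold higher (1.23 to 1.498), at 5.43 against 5.0, and Tpm4 1.20-fold (1.10 to 1.33). Tpm1 differed least, at a ratio of 1.06 (1.05 to 1.07), and the sign of its difference turned to -0.06 under 2 of the other scalings. Actg2, with 13 reads against 3, had a ratio of 3.74 with a counting interval of 1.03 to 20.4. None of these passed the rule of size.

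After banding skeletal actin lay nearest to cardiac actin among the 6 libraries. Acta1 made up 39.4% of the muscle actin FPKM in banding and 10.3% in sham, and Actc1 58.4% and 86.1%. By reads the Acta1 share was 39.9% (exact 95% binomial interval 39.4 to 40.4) and 10.5% (9.97 to 10.97). The ratio of Acta1 to Actc1 was 0.674 in banding and 0.119 in sham, a 5.64-fold difference (95% counting interval 5.33 to 5.97) that needs no scaling, and 0.020 to 0.064 in the embryonic and adult libraries. Sham lay above all of these, and banding above sham. The ratio of Tpm2 to Tpm1 was 1.66-fold higher in banding (1.51 to 1.82), and that of Tpm4 to Tpm1 1.13-fold (1.03 to 1.24). Over the adult pair the ratio of Acta1 to Actc1 differed 2.08-fold and that of Tpm2 to Tpm1 0.957-fold.

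Markers of skeletal muscle were too low for the rule of size, with 0 of 9 at 5 FPKM or more. Their summed level was 2.21 in banding and 2.80 in sham, with 3 of them at 0 in banding. Tnni2 stood at 1.12 against 2.24, Tnnt3 at 1.26 against 1.15 and Mylpf at 0.81 against 0.73. The myosins Myh1, Myh2 and Myh4 stood at 0.05 or lower in both. Of the 7 fibroblast markers with at least 5 FPKM, 6 were higher in banding by size. Their list had a summed level of 9.55 against 8.15. The atrial list was also higher, at 12.39 against 8.29, through Nppa, a natriuretic peptide gene that stood at 12.39 against 8.28 and passed the rule. The other 3 atrial markers were under 5 FPKM in both, with Myl4 at 1.94 and 1.61, Myl7 at 0.79 and 0.64 and Sln at 0. The smooth muscle list summed to 6.79 in banding and 6.89 in sham, with Smtn at 4.96 against 5.74. Of its 5 genes with at least 5 FPKM 4 were higher in banding and 1, Smtn, was lower, and none passed. Their median difference was 0.23, against 0.06 over all genes. The part of fibroblasts and of smooth, skeletal and atrial muscle in the values of Acta1, Acta2, Tpm2 and Tpm4 was not tested.

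**Figure D3:**
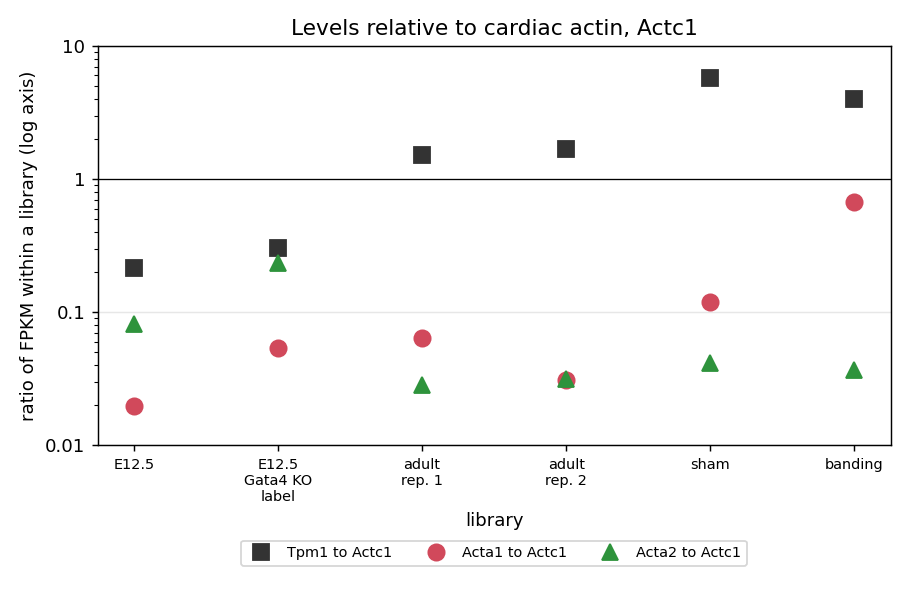
Ratio of the FPKM of Tpm1 (squares), Acta1 (circles) and Acta2 (triangles) to that of Actc1 within each library, on a log axis, with a line at 1. Tpm1 lies below Actc1 in the embryonic libraries (0.215 and 0.303) and above it in the postnatal ones (1.52 to 5.76), and Acta1 reaches 0.674 of Actc1 in banding.

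The library labelled Gata4 KO was set beside E12.5 to ask which members differ with the label. Smooth muscle and skeletal actin were higher in it, cardiac actin was slightly lower, and the tropomyosins lay close. Acta2 stood at 9.83 against 8.56, from 28764 and 14094 reads, 2.41-fold higher in FPKM (95% counting interval 2.37 to 2.46). Acta1 stood at 7.71 against 6.54, a 2.28-fold ratio (2.17 to 2.38). Both passed the rule of size, as 2 of the 6 members with at least 5 FPKM, where 2.86% of 8218 genes were called, 1.85% higher and 1.01% lower. There is no replicate check here either, and the Acta1 ratio of 2.28 lies beside the 2.26 of the adult pair.

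Actc1 stood at 11.92 against 12.18, 1.20-fold lower in the labelled library. Tpm1 was 1.18-fold higher (95% counting interval 1.16 to 1.19), at 10.20 against 9.97, and Tpm2 1.20-fold (1.13 to 1.28), at 5.67 against 5.42. Tpm4 stood at 6.38 against 6.46, and its difference of -0.08 was 0.01 without the 50 highest genes in the scaling. Actg2 had a ratio of 1.20 (0.815 to 1.78). None of these passed the rule of size.

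Within the actins of the labelled library Acta2 made up 18.2% of the FPKM against 7.35% in E12.5, Acta1 4.18% against 1.795% and Actc1 77.6% against 90.8%. The ratio of Acta2 to Actc1 was 2.89-fold higher (95% counting interval 2.83 to 2.95) and that of Acta1 to Actc1 2.72-fold (2.60 to 2.85), and the ratio of Acta1 to Acta2 lay at 0.230 against 0.244. Among the tropomyosins Tpm1 made up 89.9% against 88.6% and Tpm4 6.27% against 7.69%. The ratio of Tpm4 to Tpm1 was 1.24-fold lower in the labelled library (1.18 to 1.31), and that of Tpm2 to Tpm1 differed by 1.02-fold (0.955 to 1.09).

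Several marker lists differed beside Acta2. Of 4 smooth muscle markers with at least 5 FPKM 1 passed the rule of size, Tagln, an actin-binding protein of smooth muscle, at 6.29 against 5.19, while Cnn1 stood at 6.71 against 6.75 and Myh11 at 0.47 against 0.08. The list summed to 7.81 against 7.55. Fibroblast markers were higher by size in 5 of 7 cases, with a summed level of 8.42 against 7.29, and red cell markers in 4 of 4, with 15.98 against 14.38. Heart muscle markers had a median difference of -0.44 over 8 genes, with 7 negative and none past the rule. Skeletal muscle markers summed to 5.05 against 6.22. All 3 pericyte markers with at least 5 FPKM were higher, and 1 passed the rule, Pdgfrb at 4.17 against 3.04. The pericyte list summed to 5.86 against 5.45. Of 4 endothelial markers 3 were higher and 1 lower, with a median difference of 0.41 and none past the rule. The part of a different mixture of cells in the actin values was not tested.

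**Figure D4:**
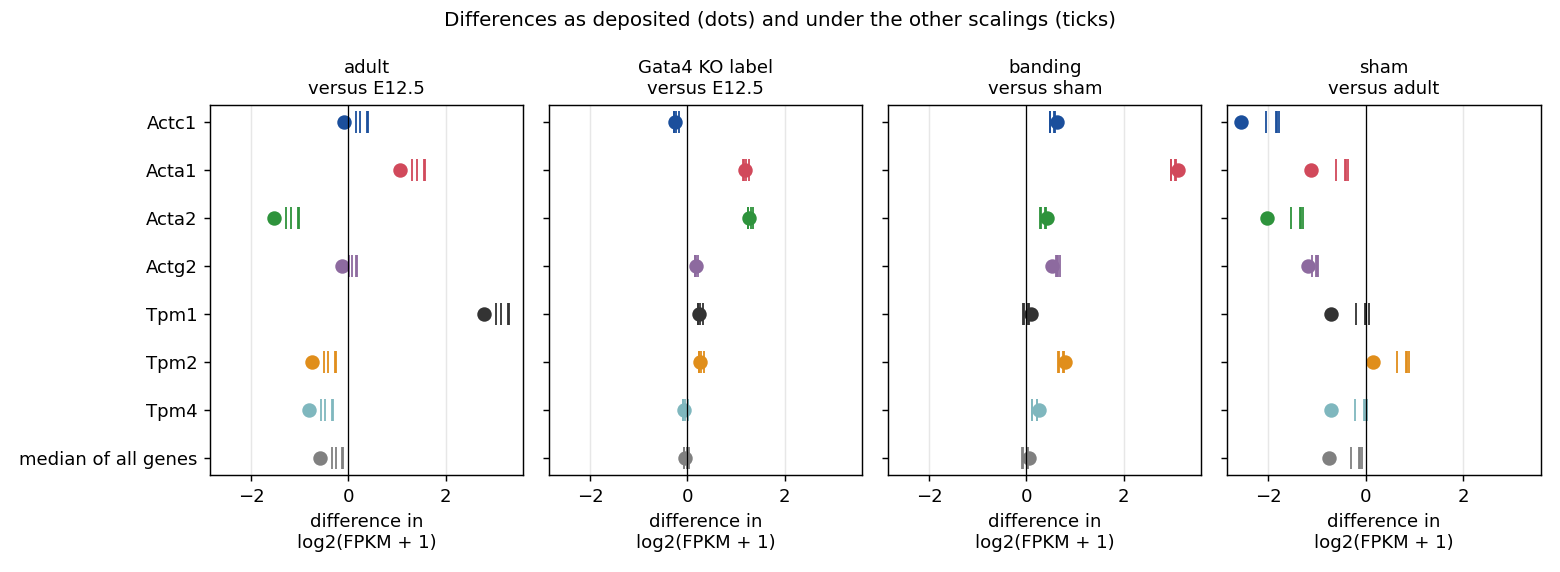
Difference in log2(FPKM + 1) of each member and of the median of all genes with at least 5 FPKM in 4 comparisons, as deposited (dots) and under the 4 other scalings (ticks). Acta1 lies between 2.96 and 3.11 in banding versus sham under every scaling, Actc1 crosses 0 in adult versus E12.5, and in sham versus adult all members move with the scaling.

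Sham was also set beside adult heart, for which the labels name no operation. Cardiac actin was the member with the largest difference past the rule, and Tpm1 lay near the median of all genes. Actc1 was 5.86-fold lower in sham in FPKM, Acta2 4.19-fold and Acta1 2.37-fold, and these 3 passed the rule of size, of 6 members with at least 5 FPKM, where 50.2% of 6671 genes were called, 43.7% lower and 6.49% higher. The median difference of all genes was -0.74, against -2.55 for Actc1, -2.03 for Acta2, -1.12 for Acta1, -0.70 for Tpm1, -0.71 for Tpm4 and 0.15 for Tpm2. Under the 4 other scalings Actc1 stayed lower by 1.79 to 2.04 and Acta2 by 1.29 to 1.53, both past the rule, while Acta1 differed by -0.61 to -0.36 and did not pass. The Acta1 call also rested on adult replicate 1: its log2 ratio of FPKM was -1.24 against both adult libraries and -0.54 without that replicate, which left 2 members called. Tpm1 and Tpm4 changed sign with the scaling. This comparison shares the adult libraries with the first one, and the sham library differs from adult in the share of reads on genes and in Rn45s as given above. The operation and these differences between libraries cannot be told apart. Marker lists differed beside the actins: by size 4 of 8 heart muscle markers, 4 of 7 smooth muscle markers, 3 of 4 pericyte markers and 3 of 4 atrial markers were lower in sham, while 3 of 6 fibroblast markers were higher and 2 lower. The summed levels were 14.67 in sham against 15.49 and 15.50 in adult for heart muscle, and 6.89 against 7.22 and 7.43 for smooth muscle. For fibroblasts they were 8.15 against 6.90 and 7.22. The part of these cells in the actin values was not tested.

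Other genes of the thin filament and of actin turnover, 54 in a list with the cytoplasmic actins, troponins, tropomodulins, leiomodins, capping proteins and SRF cofactors, changed both ways between adult and E12.5. By limma 20 of 52 tested rose and 23 fell, beside 23.4% and 48.4% of all 12658 genes tested. The list had a median difference of -0.06 against -0.51 over all genes. The largest rises were Lmod2, a leiomodin that lengthens cardiac thin filaments, by 3.89 (SE 0.065), Lmod3 by 3.47 (SE 0.066), Nrap by 3.32 (SE 0.20) and Tmod4, a tropomodulin that caps the pointed end, by 2.69 (SE 0.22). The largest falls were Tnni1, the slow skeletal troponin I, from 10.66 to a listed 0, Pfn1, which binds actin monomers and fell by 5.17 (SE 0.088), Tnnt1, the slow skeletal troponin T, which fell by 4.84 (SE 0.077), and Cnn2, a calponin, which fell by 4.75 (SE 0.080). Limma adjusted p-values of these 8 lay between 0.00398 and 0.00822. Each adult replicate lay on the same side of E12.5 for all 8.

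The other comparisons used the rule of size for these genes, read beside the share of all genes called. After banding 2 of 39 were higher by size and none lower, beside 3.19% higher and 1.62% lower of all genes. Abra, an actin-binding activator of SRF signalling, stood at 4.21 against 2.40, and Pdlim5, a Z-disc protein, at 6.46 against 5.40. The list had a median difference of 0.20, against 0.06 over all genes. In the library labelled Gata4 KO 1 of 45 was higher, Tagln, and 2 were lower, Tnni3 at 7.90 against 10.05 and Tnni2 at 3.90 against 5.77. Over all genes 1.85% were higher there and 1.01% lower. In sham 25 of 45 were lower than in adult, beside the 43.7% of all genes given above, and 1 was higher, Fhod1 at 2.91 against 2.06. The list had a median difference of -1.03 there, against -0.74 over all genes. Of those called lower, the furthest below adult were Nebl, at 2.27 against 5.80, Abra at 2.40 against 5.65, Cap2 at 2.63 against 5.48 and Capza2 at 3.73 against 6.20. Srf, the gene for SRF itself, stood at 3.83 and 3.63 for adult, 5.11 for E12.5, 2.60 for banding, 2.28 for sham and 4.82 for the library labelled Gata4 KO.

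The other tropomyosin gene, Tpm3, which is made in slow skeletal muscle and in non-muscle cells, ranged from 4.88 in E12.5 to 5.48 in banding and varied less than any of the 3 members. The cytoplasmic actin Actb stood at 9.95 for E12.5 and at 10.47 for the library labelled Gata4 KO, against 6.73 to 7.45 in the postnatal libraries. Actg1 stood at 4.08 and 4.01 in the embryonic libraries and 5.91 to 6.70 in the others, the opposite order. Actin genes share long stretches of near-identical coding sequence, and the sources used here do not say how reads that match several copies were counted. Values of single actins are therefore uncertain to the extent that such reads were split or dropped.

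By profile over the 6 libraries, the genes nearest to each member were taken from 8640 candidates by the root mean square difference of mean-centred log2 levels. Acta1 had no close match: the nearest was Bgn, a matrix proteoglycan, at 0.50, followed by Ankrd2, an ankyrin repeat protein, at 0.57 and Nuak1, a kinase, at 0.62. Ankrd2 stood at 2.97 in banding and only 0.06 to 0.28 in the other libraries, so its likeness rests on 1 library. Acta2 was nearest to F2r, the thrombin receptor, at 0.26, then Surf4 at 0.30 and Klhl13 at 0.32. Actc1 was nearest to Vdac2, a mitochondrial channel, at 0.073, Gatad1 at 0.11 and Uba3 at 0.13. Tpm1 was nearest to Podxl at 0.072, Sarnp at 0.093 and Rps10 at 0.10, Tpm2 to Abi3 at 0.12, Ccdc137 at 0.13 and Trub2 at 0.14, and Tpm4 to Ing3 at 0.041, Tbc1d1 at 0.050 and Nacc1 at 0.055. Actg2 was nearest to B3gnt1 at 0.087, Klhl2 at 0.13 and Sepx1 at 0.14. All profiles share the same 6 libraries and their scaling, so low values here describe these libraries only.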

How the data were processed

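Poly(A) RNA-seq of mouse heart was used, from pooled RNA of which 2 µg went through 2 rounds of selection, per the labels' protocols. Per the submitters' processing notes the tools TopHat 1.4, HTSeq 0.5.3 and CASAVA 1.8.2 were used in the series, with MACS 1.4 and BWA 0.5.9 and the build mm9. Their roles are not given in the sources used here. The values deposited by the authors are log2(FPKM + 1), as read from the values: undone to FPKM, values of lowly expressed genes are whole multiples of one another across libraries once depth is taken out. Whole reads were recovered for 99.99% of 98043 values above 0, within 0.001 of a read, up to a whole factor shared by all libraries of a gene. They give exact conditional binomial intervals for FPKM ratios, normal intervals on the log scale for ratios of ratios, and depth; intervals cover counting error only.

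Adult and E12.5 were compared on log2(FPKM + 1) by limma (version 3.58.1, R 4.3.3) with its intensity trend, over 12658 genes with at least 1 FPKM in some library, with 1 residual and 1.535 prior degrees of freedom. The labels do not say whether separate animals or pools gave the adult pair, so p-values measure only its spread, which may be technical. Other comparisons used the rule of size, with no p-value. The fit was tested on simulated reads. Alternatives were 4 scalings, pseudocounts, filters, size thresholds, the other E12.5 library and leaving out each adult library. Named genes followed a fixed rule: all members, up to 4 list genes per direction and comparison past the call rule, and 3 nearest profiles per member. The members and lists were chosen with earlier results of these data known. Promoters came from RefSeq tables matched by symbol, for 6 of 7 members.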

Additional observations from a re-analysis of the deposited data

How the results depend on the processing

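Under every alternative run, Tpm1 stayed higher and Acta2 lower in adult than in E12.5 and past the limma threshold where a test was had, and Acta1 stayed higher in banding past the rule of size. The limma count of members lower in adult, 3 as deposited, was 1 under upper-quartile scaling and 1 under median-of-ratios scaling. Tpm4 also missed without a filter on low values (adjusted p = 0.0576). The difference of Actc1 reversed to 0.39 under upper-quartile scaling, 0.41 under median-of-ratios scaling, 0.15 with the summed FPKM, 0.24 without the 50 highest genes, 0.031 with both E12.5 libraries as 1 group and 0.16 with the library labelled Gata4 KO in place of E12.5. That of Actg2 reversed to 0.16, 0.18, 0.017 and 0.074 under the 4 scalings, and that of Acta1 to -0.11 with the library labelled Gata4 KO. By size, members higher in adult numbered 1 to 2 and members lower 1 to 1 when an adult library was left out; sham versus adult gave 2 to 3 lower and 0 to 0 higher. With 1.5-fold, 3 members were lower in adult, 3 higher in banding and 5 lower in sham. Over all genes 1.5-fold gave 4491 of 8802 lower in adult, 484 of 5108 higher in banding and 3982 of 6671 lower in sham. With 3-fold, 1 member was higher and 0 lower in adult and 0 higher in the library labelled Gata4 KO. Over all genes 3-fold gave 1041 higher and 2631 lower in adult and 37 of 8218 higher in the labelled library. Acta1 took 5.87% and 2.91% of the muscle actins, and Tpm1 99.0% and 98.9% of the tropomyosins, when an adult library was left out. With Actb and Actg1 in the sum the share of Acta1 was 1.501% for E12.5, 35.2% for banding, 8.57% for sham and 3.25% for the library labelled Gata4 KO. By reads it took 39.9% in banding, and Tpm1 took 98.7% for adult, 86.4% for E12.5, 97.8% for banding, 98.4% for sham and 87.9% for the library labelled Gata4 KO. Over all genes, scaling moved the count lower in adult by size from 3621 to 2382 and 2406, the count lower in banding from 83 to 163 and 164, the count lower in the library labelled Gata4 KO from 83 to 53, and sham versus adult from 433 higher and 2915 lower to 1108 to 1550 higher and 1224 to 1719 lower. The cause of these shifts was not tested. No paired analysis was possible because the groups compared share fewer than 2 replicate numbers. Depth limits Actg2, with 3 to 56 reads.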
